A study of Mus musculus with 20 samples.

Results

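The control fetal mouse heart was described from 8 arrays of whole hearts, out of 20 arrays in a study of the dioxin TCDD. Dams of the controls were gavaged with corn oil, the vehicle, on gestation day 14.5, and the hearts were taken on day 17.5; the hearts were thus free of TCDD but not of handling and vehicle. The other 12 arrays, from dams given 1.5, 3 or 6 µg/kg TCDD, entered no value below. The 8 arrays were chosen by their titles, which number them 1 to 8. The labels give neither strain nor sex, and they leave unstated how many hearts or litters stand behind an array, so the spread between arrays may be technical in part. Each array reports a MAS5 signal, a linear brightness, for sets of short probes on the MG-U74Av2 chip.

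Late in gestation the heart muscle cell still divides and carries a fetal set of contractile proteins. In the mouse, the slow myosin heavy chain Myh7 and the slow skeletal troponin I Tnni1 are the fetal isoforms of the ventricle, and they give way around birth to Myh6 and Tnni3. Fuel use also shifts at birth, from glucose and lactate toward fatty acids. The fetal ventricle makes both natriuretic peptides, Nppa and Nppb, which the adult ventricle makes again under load.

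The 4 genes taken as markers of heart muscle were bright on all 8 arrays. A gene was called present where its brightest probe set reached the array's own 40th percentile, a signal of 102 to 121, on at least 4 arrays; 5759 of 8251 genes (69.8%) were. Actc1, cardiac α-actin, gave 17127 at the lowest, 19247 at the median and 21191 at the highest. Myh6 gave 13853, 15668 and 17127. Nppa gave 4643, 5915 and 6469, and Nppb gave 4214, 5579 and 6237. For each of the 4 genes, every array lay far above its threshold, so the tissue label and the markers go together.

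Probe sets bind their transcripts with different strength, so a rank by signal orders probe sets and not molecules, and no ratio between genes is read below as a ratio of transcripts. With that limit, the 30 brightest genes were led by the contractile apparatus. They held 11 of the 25 measured genes of the sarcomere, the repeating contractile unit, a class that makes up 0.303% of all measured genes. They also held 5 cytoplasmic ribosomal proteins (Rpl41, Rplp0, Rps28, Rps24 and Rps18), the elongation factor Eef1a1 and 3 genes of the respiratory chain and ATP synthase (Cyc1, Atp5md and Cox6a2). The remainder were α-globin (Hba-a1), elastin (Eln), the glycolytic enzyme Aldoa, the tubulin Tuba1c, and 6 genes outside these classes. Those 6 were Tpt1, Ybx1, Gnas, the fetal growth factor Igf2, the mitochondrial ADP/ATP carrier Slc25a4 and the fatty acid oxidation enzyme Acaa2.

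**Figure D1:**
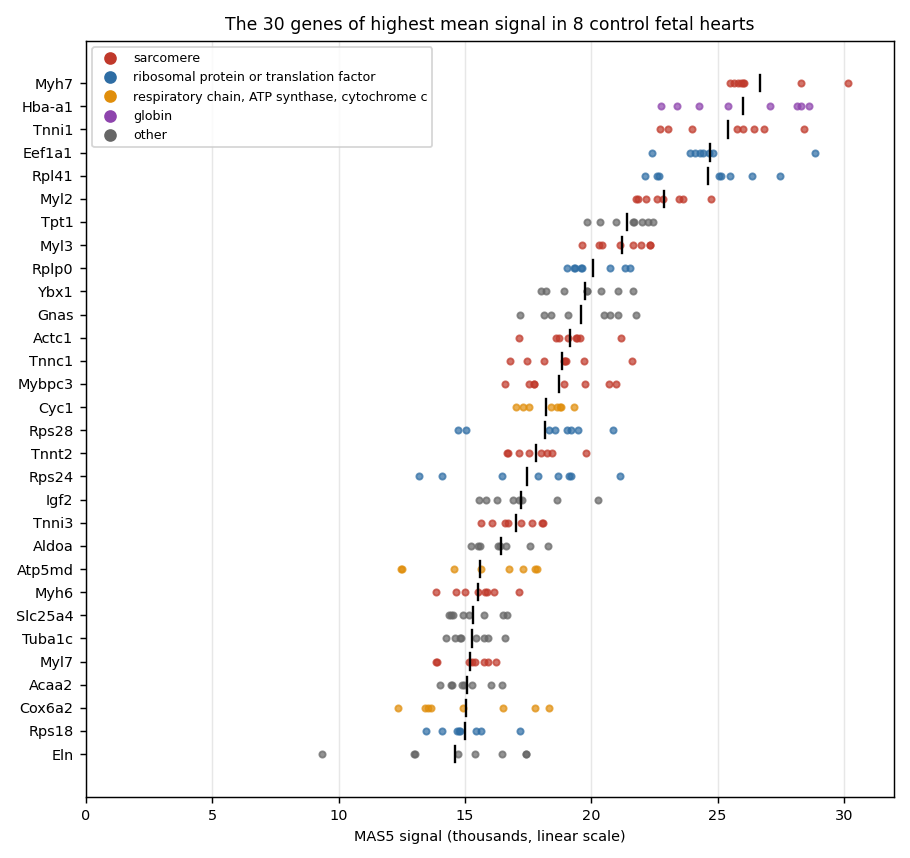
Signal of the 30 brightest genes in control hearts, on a linear axis; each point is 1 of 8 arrays, the black tick is the mean, and colour gives the gene class. Sarcomere genes (red) make up 11 of the 30, and Eln at the bottom has the widest range, from 9354 to 17433.

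The brightest gene was Myh7 (chromosome 14, 54970684 to 54994626 of assembly GRCm38.p6), the fetal myosin heavy chain. Its signal ran from 25491 over a median of 25955 to 30159, with a mean of 26673 ± 1666 (SD, n = 8), and it ranked first on 5 arrays. Control 4 was the highest and control 5 the next, and the other 6 arrays lay close together. The probe set that gave this value is of the family type (suffix f), whose probes are shared by similar transcripts. A further Myh7 probe set, of the same type, had a mean signal of 462 ± 145 (SD, n = 8). Which of both follows Myh7 better was not tested; averaged over its probe sets, Myh7 leaves the 30 brightest.

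Hba-a1, adult α-globin, and Tnni1 came next. Hba-a1 ranged from 22777 over 26235 to 28634 and was the brightest gene on controls 7 and 8. It has a near-identical neighbour copy, and the array cannot separate the pair. Tnni1 ranged from 22707 over 25885 to 28412 and was the brightest gene on control 1. All 3 leading genes stayed among the first 5 on every array.

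The list was much the same in each heart sample. Of the 30 brightest genes, 21 were in the top 30 of all 8 arrays and 30 in the top 100 of all 8, and each array's own top 30 held 26 to 28 of them. They carried 8.26% to 9.07% of the summed signal of an array, and the top 100 carried 18.8% to 21.2%. The end of the list is not a step: Eln, gene 30, had a mean signal of 14596 and the next gene, Ndufb5, 14590. Igf2 entered through 1 probe set at 17233 ± 1558 (SD, n = 8), while another lay at 10.1, and 8 genes, Igf2, Eln and Myh7 among them, left the list when a gene's probe sets were averaged.

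Energy metabolism filled much of the next layer. Of 73 measured genes of the respiratory chain, ATP synthase and cytochrome c, 68 were present, beside 69.8% of all genes. Among the 100 brightest were 25 of them, where the sarcomere had 14 and cytoplasmic ribosomal proteins 15. These 3 classes make up 0.885%, 0.303% and 0.473% of all measured genes. All 12 measured genes of glycolysis and lactate metabolism, 0.145% of all, were present, and 5 were in the top 100. Collagen and matrix genes, 0.509% of all, had 32 of 42 present, near the share of all genes, and 2 in the top 100. None of 46 measured proteasome and ubiquitin genes, 0.558% of all, was in the top 100, although 40 were present.

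Contractile isoforms of the fetal and the adult heart were both bright at this age. The isoform lists held 24 pairs, 18 of them with both genes measured; of the 41 measured genes 38 were present, 37 of them on all 8 arrays, and 12 were among the 30 brightest. Myh7 and Myh6, the latter at 15500 ± 1000 (SD, n = 8), were in the top 100 on every array. The fetal Tnni1, at 25398 ± 1988 (SD, n = 8), and the adult Tnni3, with 15651, 16966 and 18078 as lowest, median and highest, were too. The adult isoform was thus within the brightest probe sets before birth in both pairs. These were whole hearts, so the parts of atria and ventricles in the Myh6 and Tnni3 signals cannot be told apart.

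Atrial and ventricular light chains were both bright in these whole hearts. Myl7, the atrial regulatory light chain, ranged from 13842 over 15346 to 16231, and its ventricular counterpart Myl2 from 21753 over 22709 to 24732. Myl4, the atrial essential light chain, ranged from 12182 over 13564 to 17206, and the ventricular Myl3 from 19636 over 21388 to 22335. A further Myl4 probe set ranged only from 248 over 800 to 1058, and which of both follows Myl4 better was not tested. Controls 1 and 2 were the lowest and control 4 the highest for both atrial genes, but this order rests on the scaling: under quantile normalization control 4 was the lowest for Myl7, and control 8 the highest for Myl7 and control 6 for Myl4.

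Of the actins, Actc1 was among the 30 brightest, while the skeletal α-actin Acta1 had a mean signal of 1887 ± 418 (SD, n = 8) and rank 788. Acta1 was lowest in control 2 (1266) and highest in control 4 (2481). Acta2, smooth muscle α-actin, which fetal heart muscle also makes, had 6620 ± 775 (SD, n = 8). The fast skeletal troponin C Tnnc2 lay near the threshold, at 117 to 235, beside 16796 to 21603 for the cardiac Tnnc1.

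Enzymes of the muscle type and of the general type were also found together. Cox6a2, the heart and muscle subunit of cytochrome oxidase, ranged from 12334 over 14290 to 18309, and the general Cox6a1 from 10709 over 12560 to 13281. Cox7a1, the muscle form of another subunit, had 2055 ± 424 (SD, n = 8) and its general partner Cox7a2 11365 ± 1087 (SD, n = 8). Cox8b, the muscle form of the eighth subunit, was present on all arrays at 3179 ± 542 (SD, n = 8); the general Cox8a reached the threshold on 0 arrays, at 7.20 to 73.7. Signals that low lie within the 2.2 to 105 of the 15 bacterial control probe sets with no target added, so they bound the transcript only as far as the probes work. A further Cox8b probe set had a mean signal of 557.

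Fetal and adult partners of glucose and lactate metabolism were both present. Ldha, the lactate dehydrogenase subunit of glycolytic tissue, ranged from 11627 over 14994 to 16333, and Ldhb, the subunit typical of adult heart, from 3429 over 5167 to 6753. Hk1, the fetal hexokinase, had 8886 ± 1102 (SD, n = 8) and Hk2 1841 ± 286 (SD, n = 8). The glucose transporters Slc2a1 and Slc2a4 had mean signals of 1002 and 667. The phosphoglycerate mutases, glycolytic enzymes, had 4758 for the general Pgam1 and 6155 for the muscle Pgam2. The brain-type creatine kinase Ckb had 4708 and the muscle-type Ckm 2233. Cpt1a, the liver form of the enzyme that lets fatty acids into mitochondria and a fetal form in heart, had 1148 ± 216 (SD, n = 8), and Cpt1b had no probe set with a single symbol.

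**Figure D2:**
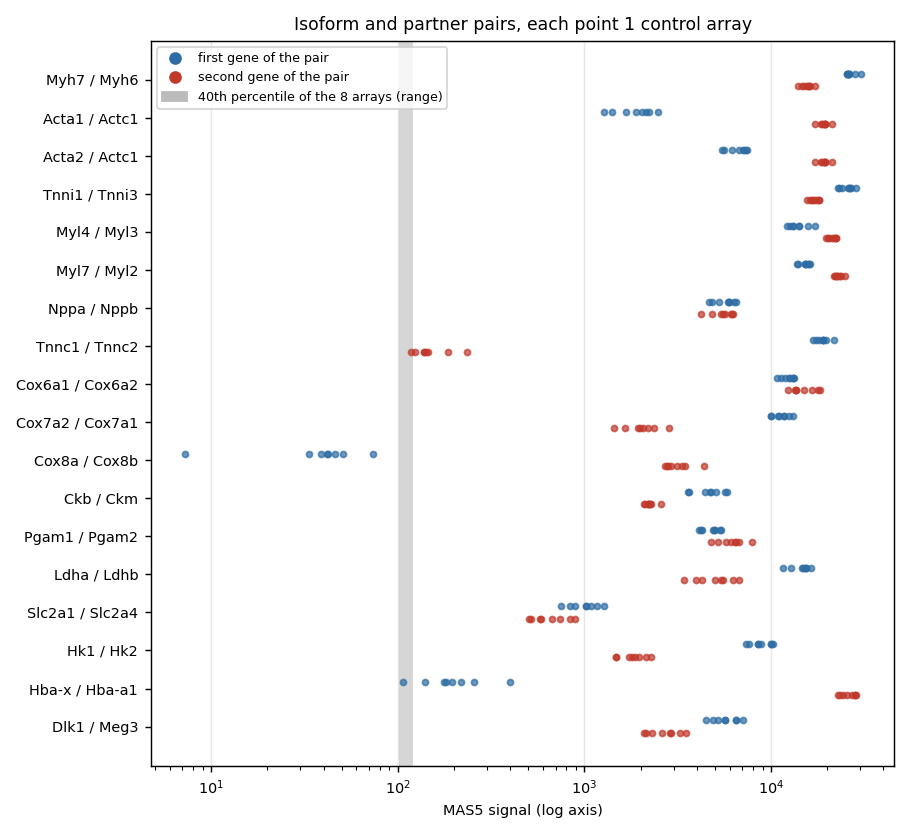
Signal of 18 isoform and partner pairs on a log axis; each point is 1 array, blue the first and red the second gene of a pair, and the grey band is the range of the arrays' 40th percentiles. Cox8a is the gene wholly below the band, while both partners of the troponin I, myosin and light chain pairs lie at 12182 or more on every array.

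Among the embryonic globins, Hba-x gave 106 to 398 and Hbb-bh1 38.6 to 57.2, the latter at or above the threshold on 0 arrays. Hbb-y reached it on 4, with 366, 235 and 605 in controls 5, 7 and 8 and 72.1 to 109 in the other 5. These genes serve the first red cells of the yolk sac, which are largely replaced by liver-made red cells at this age. Dlk1 and Meg3, imprinted neighbours expressed from opposite parental alleles, were present on all arrays, with mean signals of 5750 and 2705.

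Whole hearts mix cell types, and in such bulk RNA fewer cells of a type and less RNA per cell cannot be told apart. Over 23 marker lists, 115 of 173 measured markers (66.5%) were present, beside 69.8% of all genes. These lists include the sex genes and the lists of tissues not in heart, which follow. Among the 173, 16 were genes of retina, brain, testis and pancreas, taken as tissues the heart does not hold. Of these 16, 4 (25%) were present: Pcp2, Crx, Tnp1 and Cela1. That share shows how often probe sets of such genes pass, and a list near it says little. A list near the 69.8% of all genes passes about as often as any gene.

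All measured markers were present for 5 lists: cardiomyocytes (15 of 15), endothelium (11 of 11), fibroblasts (11 of 11), epicardium (6 of 6) and smooth muscle (7 of 7). The fibroblast list had the collagens Col1a1 at 12456 ± 2017 (SD, n = 8) and Col3a1 at 6416 ± 661 (SD, n = 8), periostin (Postn) at 7069 ± 460 (SD, n = 8), and Tcf21, a transcription factor of cardiac fibroblasts, at 844 ± 28.7 (SD, n = 8). Further probe sets had mean signals of 2621 for Col1a1 and of 1105 and 811 for Col3a1. Endothelial genes ran from Eng, a TGF-β co-receptor, at 7291 ± 887 (SD, n = 8) down to Pecam1 at 264 ± 76.6 (SD, n = 8). Upk3b, a marker of epicardium and mesothelium, had 1269 and Wt1 221. Control 6 gave the lowest summed signal of the endothelial, fibroblast and epicardial lists, and of the macrophage list. The epicardial sum was 1920 there, beside a median of 2738 over the arrays. Control 6 was also the lowest array in 17.9% of all present genes, more than any other array (9.24% to 15.0%). The part of this general difference in the 4 sums was not tested.

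Chamber and conduction genes were detected in part. Gja1, a gap junction protein placed on the ventricular list, had 10382 ± 808 (SD, n = 8), which is also the median of that list. Conduction markers were dimmer: Irx3 had a mean of 647, the sinus node factor Shox2 363, and the connexin Gja5 280. Below the threshold were Tbx3, the atrial genes Sln and Kcnj3, and the ventricular channel Kcnj2.

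Apart from the red cells described further on, markers of blood cells were at most 639 in mean signal. Of 12 macrophage markers 9 were present (75%), near the 69.8% of all genes. The brightest were the complement genes C1qc at 639, C1qa at 502 and C1qb at 430. Mast cell proteases and enzymes were present as 5 of 7 (71.4%), also near the share of all genes, with Cma1 at 453 and Tpsb2 at 439. Cma1 was read by 1 of 3 probe sets, the others lying at 25 and 32, and a further Tpsb2 probe set gave 199; Mcpt4 and Fcer1a lay at background. Neutrophil genes were present as 3 of 7, lymphocyte genes as 4 of 8, and the T cell chains Cd3e and Cd3g reached the threshold on 0 arrays. None of the 3 measured platelet markers was present, though Gp9 reached the threshold on 2 arrays, and the 5 measured thymus and foregut markers reached it on 0.

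**Figure D3:**
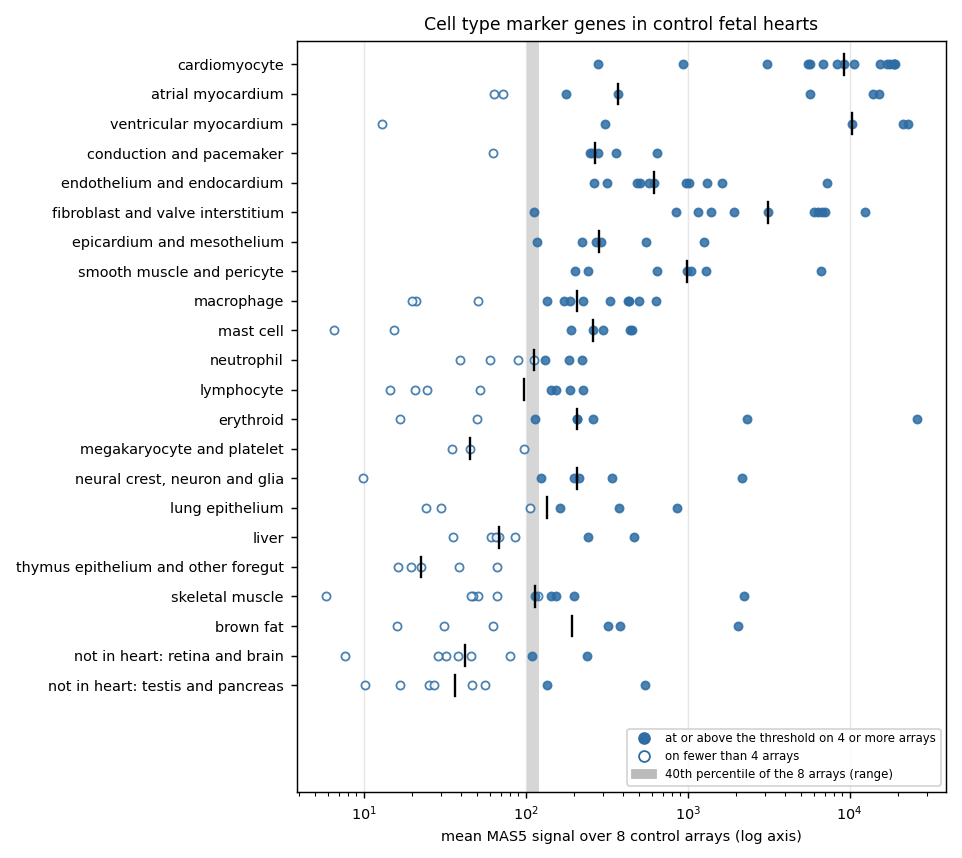
Mean signal over 8 arrays of each measured marker on a log axis, 1 row per list; filled points were at or above the array's 40th percentile (grey band: range over arrays) on 4 or more arrays, open points on fewer, and the black tick is the list's median. The ventricular and cardiomyocyte lists have the highest medians (10382 and 9273), and the lists for tissues not in heart lie mostly left of the band.

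Of 11 skeletal muscle genes 5 were present, and the embryonic and perinatal myosins Myh3 and Myh8 reached the threshold on 0 arrays. Ckm, which heart also makes, was the one marker of that list above 1000. Myod1, the muscle regulator, had 198 ± 46.0 (SD, n = 8), and Myog was present on 3 arrays. Ucp1, the defining gene of brown fat, reached the threshold on 0 arrays at 39.8 to 76.3.

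Markers of lung and liver differed between the heart samples. Sftpc, surfactant protein C of lung epithelium, gave 131, 138 and 128 in controls 1, 2 and 7, then 572 to 953 in controls 3, 4 and 5, and 2333 and 1854 in controls 6 and 8. The arrays thus fell into a low, a middle and a high level. Summed over the lung list, of which 3 of 6 measured genes were present, the signal ran from 492 in control 2 to 3160 in control 6. Sftpd and Epcam reached the threshold on 0 arrays, and Sftpb on 2. Of the liver list 2 of 7 were present, Alb at 118 (control 4) to 984 (control 8) and Ahsg at 147 (control 2) to 384 (control 5); Afp reached the threshold on 1 array.

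The promoters of these bright genes were read for 2 elements known to mark muscle and strongly regulated genes: the TATAA motif and the CArG box, the site of serum response factor, which drives many contractile genes. The windows cover the 100 bases before the annotated start, from RefSeq on GRCm38.p6, with both strands searched; 6576 of 8251 measured genes had one. A CArG box was found in 5 of 22 sarcomere genes (22.7%; Actc1, Myl3, Myl7, Ldb3 and Acta1), against 0.806% of all measured genes, 0 of 30 ribosomal protein genes and 0 of 59 respiratory genes. TATAA was found in 4 of 22 (18.2%), against 9.76% of all measured genes and 10.2% of all 32851 windows in the table. The sarcomere class also holds skeletal isoforms, and the ribosomal class, drawn by gene symbol, also holds the kinase Rps6kb2. Below, capitals mark the CArG box in the first 3 windows and TATAA in the other 4; each is shown 5′ to 3′ because it carries the element in a gene of high signal or a natriuretic peptide.
Actc1, cardiac α-actin, chr2:114052876-114052975, minus strand: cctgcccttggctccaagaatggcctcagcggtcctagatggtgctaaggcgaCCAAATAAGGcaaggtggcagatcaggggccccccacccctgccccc
Myl7, atrial regulatory light chain, chr11:5898783-5898882, minus strand: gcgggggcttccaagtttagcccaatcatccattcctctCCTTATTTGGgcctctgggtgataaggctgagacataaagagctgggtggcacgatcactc
Myl3, ventricular essential light chain, chr9:110763578-110763677, plus strand: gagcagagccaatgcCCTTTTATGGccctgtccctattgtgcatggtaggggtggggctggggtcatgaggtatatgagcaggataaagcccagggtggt
Tnnc1, cardiac troponin C, chr14:31208212-31208311, plus strand: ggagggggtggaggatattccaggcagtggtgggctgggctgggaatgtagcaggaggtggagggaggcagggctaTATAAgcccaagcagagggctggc
Nppa, atrial natriuretic peptide, chr4:148000622-148000721, plus strand: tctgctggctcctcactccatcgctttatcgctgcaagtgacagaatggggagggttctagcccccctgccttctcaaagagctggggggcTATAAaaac
Nppb, B-type natriuretic peptide, chr4:147985800-147985899, plus strand: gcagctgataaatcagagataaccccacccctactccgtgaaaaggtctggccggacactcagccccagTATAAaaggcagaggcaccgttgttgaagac
Hba-a1, adult α-globin, chr11:32283572-32283671, plus strand: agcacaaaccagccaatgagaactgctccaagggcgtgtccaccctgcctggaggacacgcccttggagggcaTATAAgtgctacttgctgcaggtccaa
In these windows the CArG box of Actc1 lies 47 to 38 bases before the start, that of Myl7 61 to 52 and that of Myl3 85 to 76. TATAA lies 31 to 27 bases before the start in Nppb, 27 to 23 in Hba-a1, 24 to 20 in Tnnc1 and 9 to 5 in Nppa. Myh7, Myh6, Tnni1, Tnni3, Tnnt2, Myl2 and Mybpc3 had neither element in their windows, which says only that these letters are not there. A match is a run of letters and not a bound site.

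Spread over the arrays was taken as the SD of log2(signal + 32), in which adding 32 damps the noise of dim probe sets. Over the 5759 present genes its median was 0.21, with quartiles of 0.16 and 0.29, and 266 genes (4.62%) had an SD of 0.5 or more. The median fell from 0.32 in the dimmest decile of genes to 0.16 in the brightest, and the share at 0.5 or more fell from 19.4% to 0.868%. Brightness and spread are therefore linked on this chip, and gene classes are set against genes of like signal.

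Sarcomere genes had small SDs, at signals where most genes do. The 23 present ones had SDs of 0.06 to 0.37 with a median of 0.11, where the brightest decile of all genes had 0.16. That decile reaches far below most of the class, so the 100 brightest genes were set apart: the 14 sarcomere genes there had a median of 0.090 and the other 86 a median of 0.13. Among the 30 brightest the medians were 0.086 for 11 and 0.11 for the other 19, and the ranges overlapped (0.063 to 0.12 and 0.064 to 0.30). The part of compression near the top of the scale in these values was not tested. The ribosomal class had a median of 0.15, with its highest SD of 0.36 in the kinase Rps6kb2, and respiratory genes had a median of 0.18. None of the genes in these 3 classes had an SD of 0.5 or more.

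**Figure D4:**
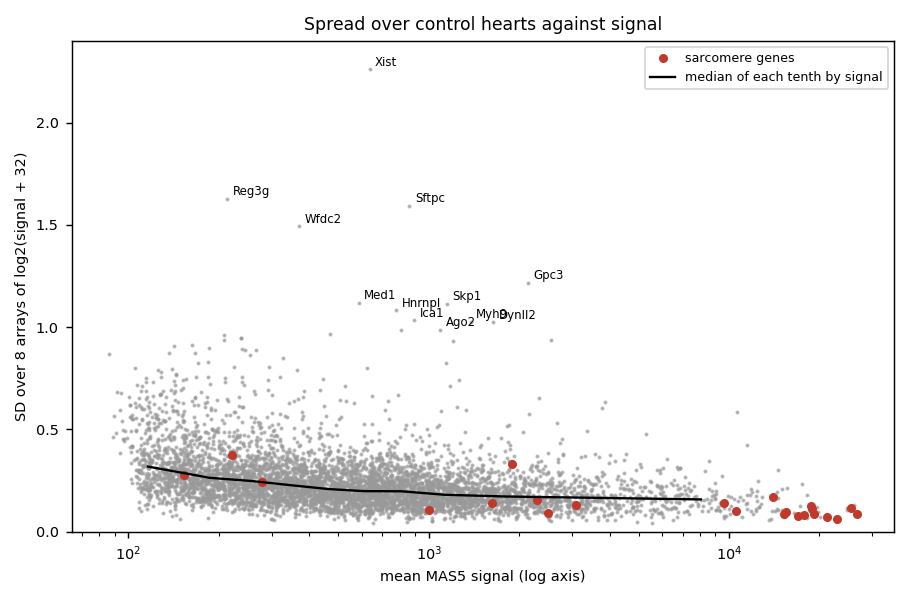
SD over 8 arrays of log2(signal + 32) for 5759 present genes against mean signal on a log axis; sarcomere genes are red, and the line joins the medians of the deciles by signal. The line falls from 0.32 to 0.16, and Xist, Sftpc, Reg3g and Wfdc2 stand highest.

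The smallest spread was that of Rbbp7, a histone-binding chaperone subunit, with signals of 5313 to 5746 and an SD of 0.04. Slc9a8, a sodium-proton exchanger, and Tcf21 followed. Among the 25 smallest SDs, which ended at 0.061 with Naglu (next gene Znhit1, also 0.061), were β-catenin (Ctnnb1), nucleophosmin (Npm1), the cohesin subunit Rad21, the ATP synthase subunit Atp5a1 and 4 genes of muscle structure, membrane or fuel use: Myom1, Fhl1, Cav3 and Cpt2. All 25 had a mean signal above the median of all genes, and their highest array exceeded the lowest by 1.08 to 1.15 times. The list is loose: another probe set was present for 5 of these genes, with SDs of 0.16 to 0.25, and 9 to 16 of the 25 stayed when 1 array was left out.

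The largest spread was that of Xist (chromosome X, 103460373 to 103483233), the RNA that silences 1 X chromosome in female cells, with an SD of 2.26. Its signals in controls 1 to 8 were 4.40, 34.1, 1601, 1343, 889, 258, 27.0 and 932. The Y-linked gene Eif2s3y gave 638, 746, 269, 260, 180, 377, 682 and 336 on the same arrays. Controls 1, 2 and 7 were thus the lowest for Xist and the highest for Eif2s3y, and control 6 was next in both. Uty, also Y-linked, had its 4 highest signals, 109 to 169, on the same 4 arrays. Its mean signal of 102 was near the threshold, so its order is imprecise. Kdm5d, another measured gene of the sex list, was not present. Eif2s3y was above the threshold on all 8 arrays, through a probe set of the family type.

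The next largest spreads belonged to epithelial genes. Reg3g, a secreted antibacterial lectin of gut and airway, gave 11.8 to 12.6 in controls 1, 2 and 5 and 612 and 510 in controls 3 and 4. Wfdc2, a secreted protein of airway and other epithelia, gave 35.6 to 66.0 in the same 3 arrays and 892 and 935 in controls 3 and 4. Both genes were thus high in controls 3 and 4, whereas Sftpc was highest in controls 6 and 8. Ager, a receptor abundant in flat lung cells, and the airway secretory gene Scgb1a1 were also among the 25 largest SDs, at 0.95 and 0.91. The part of tissue taken along with the heart in these values was not tested.

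**Figure D5:**
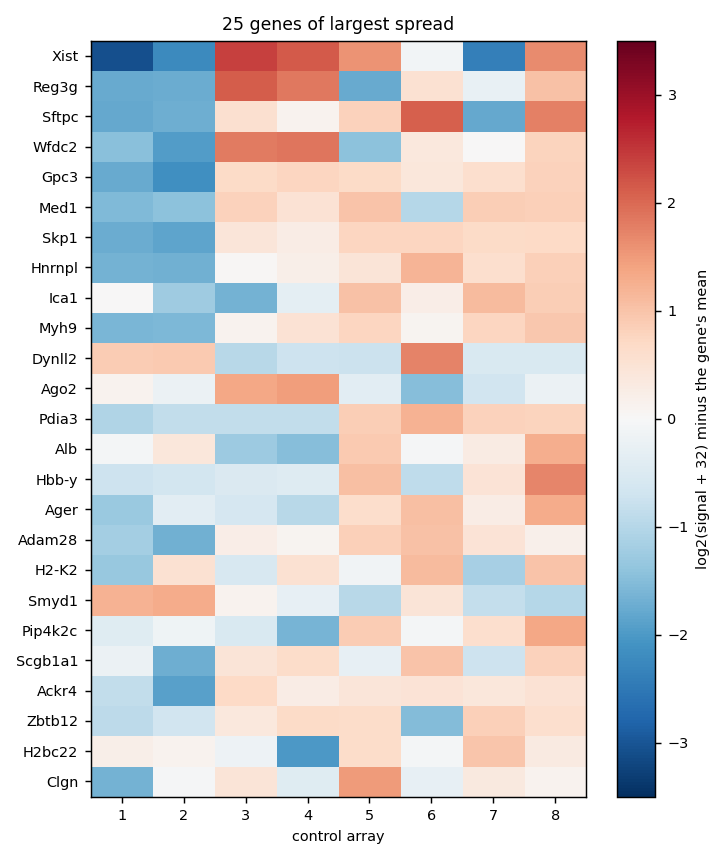
The 25 present genes of largest SD in rows and the 8 control arrays in columns; colour is log2(signal + 32) minus the gene's mean over the arrays, red above and blue below. Blue blocks in columns 1 and 2 mark genes such as Gpc3 and Skp1, and Pdia3 is blue in columns 1 to 4 and red in 5 to 8.

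Controls 1 and 2 stood apart together. Both lay below the other 6 arrays in 608 of 5759 present genes (10.6%) and above them in 770 (13.4%). Shares for other pairs of arrays are not set beside these. Of the 25 largest SDs, 8 were of the first kind (Wfdc2, Gpc3, Med1, Skp1, Hnrnpl, Myh9, Adam28 and Ackr4) and 1, the muscle methyltransferase Smyd1, of the second. Gpc3, a cell-surface proteoglycan of growth control, gave 483 and 358 in controls 1 and 2 and 2266 to 3016 in the other 6. Its SD was 1.22, and 0.14 without controls 1 and 2. Of the 8 genes, 6 had an SD below 0.5 without the pair of arrays.

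The same arrays differed in the actin control. The log2 ratio of the 3′ to the middle probe set of β-actin, which rises where labelled RNA is short, was 1.19 and 1.34 in controls 1 and 2. It was 0.90 in control 6 and 0.37 to 0.61 in the other 5. That of Gapdh lay between −0.28 and −0.12 throughout. The 5′ actin probe set gave 9188 and 8538 in controls 1 and 2, beside 10950 and 11277 for the 3′ set and 4803 and 4464 for the middle set. In controls 7 and 8 the 5′ set gave 10631 and 10367, beside 16035 and 16827 for the 3′ set. The 3′ set against the 5′ set thus did not set controls 1 and 2 apart. Controls 1 and 2 had a correlation of log2 signals over present genes of 0.982, where all pairs gave 0.95 to 0.98. Such likeness was not particular to them: controls 5 and 7 gave 0.981, 7 and 8 gave 0.980, and 5 and 8 gave 0.979. The part of RNA length in the 8 genes was not tested.

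Controls 1 to 4 lay wholly on 1 side of controls 5 to 8 in 497 present genes (8.63%), and in 7 of the 25 largest SDs. Pdia3, a protein-folding enzyme of the endoplasmic reticulum, gave 299 to 349 in the first 4 and 1154 to 1571 in the last 4, and its SD within these sets was 0.16. The others were Skp1, Hnrnpl, Ica1, Ago2, Ager and Pip4k2c. The design text counts 4 replicates for each dose, while 8 controls are present; whether the numbers 1 to 4 and 5 to 8 mark separate runs is not given in the sources used here.

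Several red cell genes were highest on the same arrays. Alas2, the heme synthesis enzyme of red cells, gave 5092 in control 8, 2835 in control 5, 2623 in control 7 and 1288 to 2015 in the other 5. Hbb-y was highest in the same 3 arrays, and Slc4a1, the red cell anion exchanger, was highest in controls 8 and 5 (634 and 393, with 141 to 227 elsewhere). Hba-a1, which was near the top of the scale everywhere, moved little, with an SD of 0.13. The summed red cell list ran from 25451 in control 2 to 35208 in control 8, and Alb was highest in controls 8 and 5 as well.

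Several large spreads rested on a single probe set. Of the 25 genes, 5 were read by probe sets of the r type, for which the chip's design rules were relaxed (20%, beside 2.90% of all present genes). Another probe set was present for 5 of the 25, and its SD was 0.5 or more for 1. Myh9, non-muscle myosin, had an SD of 1.03 on its brighter probe set, which gave 356 and 366 in controls 1 and 2, and 0.16 on the other. Dynll2 and Ica1 had 0.23 on theirs. The 25 largest ended with Clgn at 0.889, and the next gene, Prp2, had 0.888.

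Pairs of genes with a shared cell type or chamber were correlated over the 8 arrays. Two-sided exact permutation tests used all 40320 pairings. The pairs were chosen with earlier results of these data known, so the p-values are not those of pairs picked blind. None of the 12 pairs passed after Benjamini-Hochberg adjustment over the 12, and 2 had an unadjusted p under 0.05. The highest r was that of Sftpc and Scgb1a1 (Pearson r = 0.80, exact p = 0.0186, adjusted p = 0.223; Spearman rho = 0.74, exact p = 0.0458, adjusted p = 0.275). It was 0.87 without the 2 arrays farthest from the median of Sftpc. Within controls 1 to 4 and 5 to 8 it was 0.81. Myl7 and Myl4, both atrial, had r = 0.73 (exact p = 0.0409, adjusted p = 0.245) and rho = 0.88 (exact p = 0.00724, adjusted p = 0.0869). That r was 0.56 without the 2 arrays farthest in Myl7 and 0.72 within the sets, but −0.24 under quantile normalization, which gives every array the same distribution of signals, so its sign rests on the scaling. Myl4 was read here by its brighter probe set only.

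The other pairs were weaker. Nppa and Nppb had r = 0.63 (exact permutation p = 0.0921, adjusted p = 0.369), and Hba-a1 and Alas2 had r = 0.58 (exact permutation p = 0.124, adjusted p = 0.371). Myh6 and Myh7 had r = 0.22, Myl7 and Myl2 0.39, and Acta1 and Actc1 0.39, with adjusted exact p of 0.846, 0.596 and 0.596; the last turned to −0.13 under quantile normalization. Top2a and Ccnb2, genes of dividing cells, had r = 0.50, which turned to −0.89 without the 2 arrays farthest in Top2a, and was 0.98 without control 3 and 0.24 without control 2, so the value rests on single arrays. The remaining 4 pairs had r between −0.15 and 0.07. With 8 arrays an r must be large to pass, and these p-values do not show that the pairs are unrelated.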

How the data were processed

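Labelled cRNA of whole control hearts was hybridised to Affymetrix MG-U74Av2 arrays, with RNA isolated in Trizol, per the labels' protocols. The values the authors deposited are MAS5 intensity on a linear scale, as named in the submitters' processing notes without a version. The deposited 2% trimmed means of 500.30 to 500.34 show that arrays had been scaled alike.

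All arrays were brought to a trimmed mean of 500. Of 12488 probe sets, 66 controls, 396 with several gene symbols and 1193 with none were left out; symbols came from the platform annotation, and 10817 of 10833 were found in the RefSeq table of GRCm38.p6. A gene was read by its probe set of highest mean. SDs used log2(signal + 32). No group was compared. The number of arrays limits the precision, and array medians were 171 to 201.

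Named genes are the 30 brightest, the isoform pairs, the 4 brightest and the defining genes of each marker list, the 25 largest and 25 smallest SDs, the 10 largest SDs above the median signal, the correlated pairs and the measured sex genes; of these, examples are printed. Members and lists were chosen with earlier results of these data known. Ranking and correlation were tested on simulated data (Python 3.11, numpy 2.4.6, scipy 1.17.1, pandas 2.3.3). Alternatives covered scaling, probe sets, filter, pseudocount, measure of spread and left-out arrays; leaving out controls 1 and 2 together was added after seeing the data.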

Additional observations from a re-analysis of the deposited data

Results flagged for a closer look

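Of 194 named genes, 12 (6.19%) had 1 array whose gap to its nearest neighbour took up more of the range than a Dixon test at 95% allows for 8 arrays; chance gives about 1 in 20, so such a count carries little weight. Values below are the gap as a share of the range. The largest was for Upk3b, the epicardial marker, low in control 6 at 0.712. Other genes of cell types were Camp, of neutrophils, low in control 1 (0.602); Tpsb2, of mast cells, low in control 2 (0.545); and Stmn2, of neurons, high in control 3 (0.577). Of muscle and matrix, Ckm was high in control 2 (0.572) and Eln low in control 7 (0.528). Eef1a1 was high in control 4 (0.597), and H2bc22, a histone gene, low in control 4 (0.616). The other 4 were among the smallest SDs, so that their lone arrays still lay near the rest: Rev3l high in control 8 (0.661), Psme3ip1 low in control 8 (0.591), Bloc1s1 low in control 7 (0.583) and Atxn10 high in control 3 (0.527). They fell on 7 of the 8 arrays, with 1 or 2 on each. Control 5 had none.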

How the results depend on the processing

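The 30 brightest genes kept 22 to 30 members under every alternative run, the fewest with probe sets averaged, and 29 to 30 with 1 array left out. Of the 25 largest SDs, 16 stayed with a pseudocount of 1, 15 with a 60th percentile filter, 10 by median absolute deviation, 14 with the SD within controls 1 to 4 and 5 to 8, 15 without controls 1 and 2, and 20 to 23 with 1 array left out. Of the 25 smallest, 6 stayed under quantile normalization, 12 with no filter, 5 by median absolute deviation, 2 less the lowess trend on signal, 13 within the sets, 6 without controls 1 and 2, and 9 to 16 with 1 array left out. The 266 genes with an SD of 0.5 or more became 430 with a pseudocount of 1, 87 with 100, 667 with no filter and 79 at the 60th percentile (242 to 269 with 1 array left out). Present markers fell from 115 to 74 at the 60th percentile. Those of tissues not in heart fell from 4 to 1 there, to 1 where all arrays had to pass, and to 2 without controls 1 and 2. The filter, pseudocount and measure of spread act on these counts by construction; the cause of the other moves was not tested. The isoform count ran from 35 to 38, and 0 of 12 correlations passed under each alternative run. No paired analysis was possible because a single group is described. Dim genes near the 40th percentile have the least precise SDs.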

Other observations

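Proliferation and growth genes were also read. Ccnb2, a cyclin of dividing cells, gave 3066 at the lowest, 3169 at the median and 3846 at the highest, with controls 1, 2 and 3 above the other 5. Top2a, the topoisomerase that untangles chromosomes before division, gave 665, 865 and 1215, with controls 1 and 2 the highest. Myh11, the myosin of mature smooth muscle, had an SD of 0.71 and was highest in controls 3 and 4 (365 and 556), while Tagln, of the same list, had an SD of 0.17. Pdgfra, a receptor of fibroblasts, was highest in control 3 at 2014, with 779 to 1305 elsewhere.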
